A study of Mus musculus with 3 samples.

Results

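GLI3 peaks that lay deep inside genes were examined in forelimb buds of E10.5 mouse embryos (32-35 somites), as called on the mm10 genome. They were the peaks on the autosomes whose summit fell within the body of a protein-coding gene, outside every annotated exon, and more than 10 kb from any protein-coding transcription start site (TSS) in GENCODE M21. The rule used position alone and no measured value. It selected 2466 of the 16854 listed autosomal peaks, or 14.6%, and these are called intronic peaks here.

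The tissue came from embryos of a mixed strain background. The labels give their genotype as wild type, while the study describes an N-terminal 3XFLAG tag on the endogenous Gli3 gene, which every ChIP depended on. Chromatin of dissociated, fixed limb buds was immunoprecipitated for 2 replicate ChIP libraries, with 2 litters of limb buds per ChIP reaction by the labels, and compared with 1 input library. A whole forelimb bud mixes mesenchyme that receives Hedgehog (HH) signal with mesenchyme that does not, together with ectoderm and other cells, and the list itself does not resolve them. The peak list is 1 joint call over the libraries, so it holds 1 value per peak, with no spread between replicates and no control condition. The list gives no read counts, so that the reads behind each peak are unknown here.

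GLI3 is one of the zinc finger proteins that carry HH signals to DNA. Without the ligand it is trimmed to a repressor, and with the ligand the trimming is reduced. In the limb bud, Sonic hedgehog from the posterior margin sets digit number and identity, and GLI3 repressor restrains the pathway's genes in the anterior part. Many developmental enhancers lie in introns, some of the gene they control and some of an unrelated neighbour. The limb enhancer of Shh within an intron of Lmbr1 is the classic example of the latter, and enhancers of Irx3 within Fto are another. The position of a peak in an intron therefore does not by itself name its target gene.

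The sequences printed here were chosen because they hold a GLI match, so they do not show what intronic peaks in general look like. The GLI consensus GACCACCCA was searched on both strands, allowing 1 mismatch. Of the 20 highest-ranked intronic peaks, 4 had a match centred within 50 bp of the summit. Of the 946 intronic peaks with a false discovery rate (FDR) under 0.05, 73 had such a match, leaving out 1 chromosome whose sequence is not shown. The following are 8 of the 12 highest-ranked of those peaks, in order of rank. Their hosts include the runt-domain factor genes Runx3 and Runx2, Fto (an RNA demethylase gene that holds enhancers of its neighbours), Kiz (a centrosomal protein gene) and Pappa (a metalloprotease gene). Capitals mark the match, read 5′ to 3′ on the strand given, and each substitution names the consensus base, its position counted from 1 at the 5′ end of the consensus, and the base found.
Gm20388, chr8:121301189-121301249, + strand, C3A: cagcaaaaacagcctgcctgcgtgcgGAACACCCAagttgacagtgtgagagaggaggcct
Runx3, chr4:135166594-135166654, + strand, A9C: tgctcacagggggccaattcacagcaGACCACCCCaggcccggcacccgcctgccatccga
Tmem104, chr11:115220071-115220131, - strand, exact consensus: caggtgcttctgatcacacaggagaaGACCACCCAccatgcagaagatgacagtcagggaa
Fto, chr8:91612643-91612703, - strand, C7A: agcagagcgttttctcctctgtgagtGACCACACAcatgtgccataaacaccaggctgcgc
Kiz, chr2:146959342-146959402, + strand, A9G: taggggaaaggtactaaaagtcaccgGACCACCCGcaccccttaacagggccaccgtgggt
Ccdc102a, chr8:94903904-94903964, - strand, A2G: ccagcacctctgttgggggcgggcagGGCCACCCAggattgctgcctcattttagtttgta
Pappa, chr4:65218149-65218209, + strand, A2G: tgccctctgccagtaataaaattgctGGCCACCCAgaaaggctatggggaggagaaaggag
Runx2, chr17:44618347-44618407, + strand, A2G: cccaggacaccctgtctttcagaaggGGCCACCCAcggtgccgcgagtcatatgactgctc

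A second set is shown because the hosts are genes of the HH pathway, or, for Fmn1, a gene known for holding enhancers of its neighbour Grem1. Each is the match nearest the summit of an intronic peak of FDR under 0.05, here anywhere within 250 bp. The second in Ptch1 lies outside its listed peak.
Sufu, chr19:46422723-46422783, - strand, C6G: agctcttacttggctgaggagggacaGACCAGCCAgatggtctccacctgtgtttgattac
Ptch1, chr13:63528748-63528808, + strand, A5C: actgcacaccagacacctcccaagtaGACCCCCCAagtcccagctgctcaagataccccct
Scube1, chr15:83678756-83678816, + strand, G1A: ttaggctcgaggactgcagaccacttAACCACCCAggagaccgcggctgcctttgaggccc
Fmn1, chr2:113641057-113641117, - strand, C8T: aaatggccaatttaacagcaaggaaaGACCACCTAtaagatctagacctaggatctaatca
Ptch1, chr13:63525502-63525562, + strand, G1T: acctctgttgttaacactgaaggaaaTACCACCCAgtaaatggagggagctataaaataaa
Hhip, chr8:79984902-79984962, + strand, A9T: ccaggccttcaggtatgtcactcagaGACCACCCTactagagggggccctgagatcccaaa

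The third set shows the unchanged consensus, which stood out most from flanking sequence. In all, 8 intronic peaks of FDR under 0.05 had an exact copy centred within 50 bp of the summit, and the following are 5 of them, in Fbn1 (a microfibril protein), Fat3 (a giant cadherin), Slc39a11 (a zinc transporter), Sox6 (an HMG-box factor of cartilage development) and Hivep3 (a zinc finger factor).
Fbn1, chr2:125436374-125436434, - strand, exact consensus: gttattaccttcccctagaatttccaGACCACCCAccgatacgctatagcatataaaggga
Fat3, chr9:16314408-16314468, + strand, exact consensus: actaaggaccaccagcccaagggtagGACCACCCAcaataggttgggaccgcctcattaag
Slc39a11, chr11:113586617-113586677, + strand, exact consensus: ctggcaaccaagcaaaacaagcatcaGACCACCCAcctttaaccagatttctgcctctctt
Sox6, chr7:115624740-115624800, + strand, exact consensus: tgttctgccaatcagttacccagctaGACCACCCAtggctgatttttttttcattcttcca
Hivep3, chr4:120032645-120032705, - strand, exact consensus: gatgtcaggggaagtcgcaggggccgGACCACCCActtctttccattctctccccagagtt

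The median enrichment of intronic peaks lay near that of other GLI3 peaks, and a smaller share passed the FDR threshold. Their maximum log2 enrichment over input had a median of 2.18 (quartiles 1.97 and 2.55), from 1.7 to 5.91. It was 2.2 at intergenic peaks more than 10 kb from a TSS and 2.27 at peaks within 1 kb of one. Of the 2466 intronic peaks, 946 had FDR under 0.05, which is 38.4% (95% Wilson interval 36.5 to 40.3), beside 42.7% of all listed autosomal peaks. The share was 40.9% of 3978 intergenic peaks and 46.5% of 7853 promoter peaks, so that intronic peaks differed by -2.56 percentage points from the former (95% Newcombe interval -5.01 to -0.103) and by -8.09 from the latter (-10.3 to -5.86). These intervals cover counting over peaks only, since peaks are not replicates.

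Among the peaks of FDR under 0.05 the median log2 enrichment was 2.72 at intronic, 2.70 at intergenic and 2.70 at promoter peaks. The lowest intronic value among them was 2.32, so that the FDR threshold acted nearly as one on enrichment, and these medians are no comparison of strength. FDR was listed at 0 for 422 intronic peaks (17.1%, beside 18% of all autosomal peaks), and at 0.5 or more for 628 (25.5%, beside 22.3%). Intronic peaks made up 14 of the 100 highest-ranked peaks and 146 of the highest 1000, and 14.4% of all listed peaks. The peak nearest to the distance limit on the outside, in Shroom3, had its summit 9965 bp from a TSS and a log2 enrichment of 2.13, and the nearest on the inside, in Upf1, 10039 bp and 2.49.

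**Figure D1:**
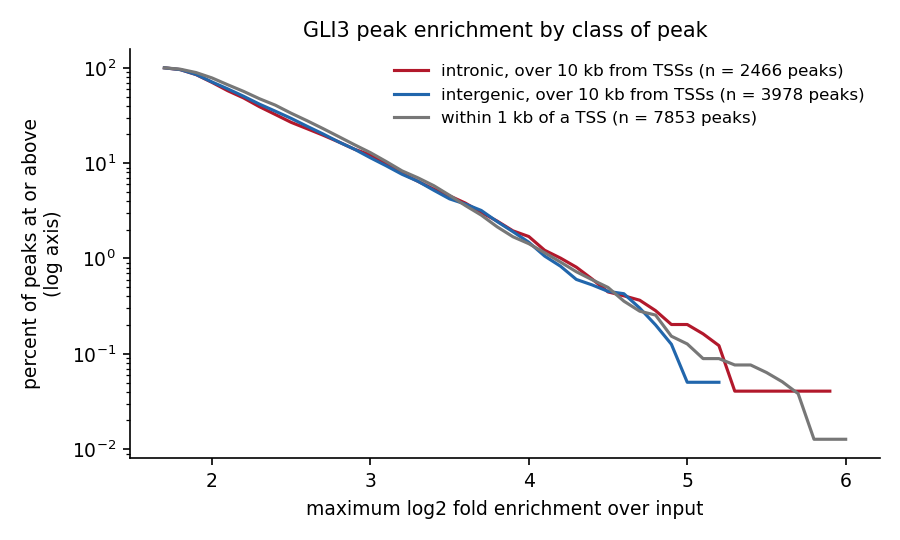
Percent of peaks (vertical, log axis) at or above each maximum log2 fold enrichment over input (horizontal) for intronic peaks (red), intergenic peaks (blue) and peaks within 1 kb of a TSS (grey). The medians are 2.18, 2.2 and 2.27; at 2.3 the curves stand at 39.1%, 41.6% and 47.4%, and at 5 only 5, 2 and 10 peaks are left.

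The strongest intronic peaks lay in genes of many kinds. The 20 highest-ranked had log2 enrichments from 4.31 to 5.91 and lengths from 550 to 1850 bp. The strongest of all ranked 5 in the list, at chr8:121300500-121301999, with a log2 enrichment of 5.91. Its only host is Gm20388, a readthrough gene model whose first intron runs over 4384 kb and spans many other genes, and the nearest TSS was that of Foxl1, a forkhead factor gene, 173 kb away. Without that model this peak would count as intergenic.

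Next came intron 2 of Igf2bp1, an RNA-binding protein gene, at rank 13 with a log2 enrichment of 5.29. Runx3, a runt-domain factor gene, held the peaks of rank 14 in intron 4 (5.22) and of rank 118 in intron 1 (4.31). Rnf216, a ubiquitin ligase gene, held the peak of rank 17 in intron 15 (5.12), 40.4 kb from the TSS of Fscn1. Coro7, which encodes a coronin, held peaks of rank 21 and 41 (5.0 and 4.82) in introns 7 and 9, both nearest to Vasn. Both also lay within the body of Dnaja3, which overlaps Coro7.

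Further down the 20 were Atoh8, a basic helix-loop-helix factor gene (rank 65, log2 enrichment 4.60), Jarid2, a Polycomb cofactor gene (rank 75, 4.55), and Tcf7l1, a factor of WNT signaling (rank 92, 4.44). Nfix (rank 101, 4.40, nearest to the TSS of G430095P16Rik) and Pknox2, a TALE homeodomain gene (rank 110, 4.36), followed. Hosts of other kinds were Hlcs, a biotin ligase gene (rank 43, 4.81), Tmem104, nearest to the TSS of Nat9 (rank 45, 4.80), Gse1 (rank 53, 4.70), Tmem132c (rank 102, 4.40), Rad51b, a DNA repair gene (rank 105, 4.39), and Msi2 (rank 116, 4.32). Fto (rank 85) and Scube1 (rank 95) are described with their lists. Of the 20, 13 had a TSS of the host gene as the nearest, 3 lay in a first intron, and 8 had a GLI match, of which 2 were exact, in Tmem104 and Pknox2.

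Far more genes could have held such a peak than did. Of 10877 genes with intron sequence open to the rule, 1224 (11.3%) hosted at least 1 listed intronic peak, and 626 (5.76%) hosted 1 of FDR under 0.05. The open sequence summed to 657 Mb, which gives 3.75 listed intronic peaks per Mb, or 1.44 of FDR under 0.05. In 1231 Mb of intergenic sequence at the same distance the densities were 3.23 and 1.32.

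Several peaks in 1 gene were common. Exactly 1 intronic peak was found in 714 hosts, and 510 hosts (41.7%, 38.9 to 44.5) held several, together 1786 peaks or 72.4% of the total. At least 3 peaks were found in 273 hosts, at least 5 in 104 and at least 10 in 17. With FDR under 0.05 required of each peak, 183 hosts held several, 20 held at least 5 and 3 held at least 10.

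Gene length moved with these counts. The median open intron sequence was 185 kb in hosts of several peaks, 85.1 kb in hosts of 1, and 17.5 kb in genes that hosted none. Of genes with less than 10 kb open, 0.884% were hosts, rising to 5.60% at 10 to 50 kb, 23.8% at 50 to 200 kb and 53.9% over 200 kb. Density rose less steeply, from 2.26 through 3.04 to 4.38 peaks per Mb in the bins up to 200 kb, and was lower, at 3.81, over 200 kb.

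Gse1, which encodes a coiled-coil nuclear protein, held the most intronic peaks of any gene other than Gm20388. It had 22 in 293 kb of open sequence, 14 of them of FDR under 0.05. The highest ranked 53 with a log2 enrichment of 4.70, and the next ranked 186, 263 and 446 (4.11, 3.97 and 3.76). The lowest ranked 13828 (1.95). Only 2 of the 22 had a GLI match within 250 bp, at ranks 1961 and 13828, so that the strongest Gse1 peaks were without one. Gse1 itself lies within the span of Gm20388, which counted 56 peaks in all, and 28 peaks had Gm20388 as their innermost host.

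Lrmda, a gene of melanocyte differentiation, held 17 intronic peaks (10 of FDR under 0.05) in 998 kb, the highest at a log2 enrichment of 3.20. Gmds, which encodes an enzyme of GDP-fucose synthesis, held 16 (4 of FDR under 0.05), and 11 of the 16 were nearest to the TSS of Foxc1, the forkhead gene beside it. The 2 strongest Gmds peaks reached 3.71 and 3.66. Msi2 (an RNA-binding protein gene) and Tenm4 (a teneurin gene) held 15 each, with 4 and 7 of FDR under 0.05, followed by Auts2 with 14 and by Slit3, Zfp423 and Rbms3 with 13 each. Dnm3 (a dynamin gene), Bcas3 and Wwox held 11 each, of which 6, 7 and 2 had FDR under 0.05, and Zfhx3, Mecom, Vti1a and Sox5 held 10 each, of which 3, 4, 7 and 1 did. Only 2 of the 13 in Slit3 and 2 of the 13 in Rbms3 passed FDR 0.05, so that a long list of peaks did not always hold many strong ones.

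Peaks also gathered in single introns. The 2413 intronic peaks with an intron number fell in 1649 introns, of which 403 held several peaks. Intron 2 of Lrmda, intron 4 of Slit3 and intron 7 of Gmds held 12 each. In the Gmds intron they were spread over 118 kb, with a median spacing of 6.75 kb. Intron 8 of Vti1a, a SNARE gene, held 9, of which 7 had FDR under 0.05, and the nearest TSS for 7 intronic peaks of Vti1a was that of Tcf7l2, a WNT-pathway factor. Of all intronic peaks, 905 (36.7%) had another within 10 kb, and 225 neighbouring pairs were within 1 kb, where 1 broad site may be listed in parts.

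By density the order of hosts was different. Among hosts of at least 5 peaks, Igdcc3, an immunoglobulin-superfamily gene, had 22.1 peaks per 100 kb of open sequence (7 in 31.7 kb). Cbfa2t3, a corepressor gene, had 14.8, and all 5 of its peaks had FDR under 0.05. Zfp608, a zinc finger gene, held 9 peaks in 85.3 kb, Ddc had 10.4 per 100 kb, Cuedc1 9.91 and Lmx1b, the dorsal selector gene of the limb, 9.28. Plpp3 and Ebf3 had 7.95 and 7.74, and Gse1 and Scube1 7.51 and 6.97.

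**Figure D2:**
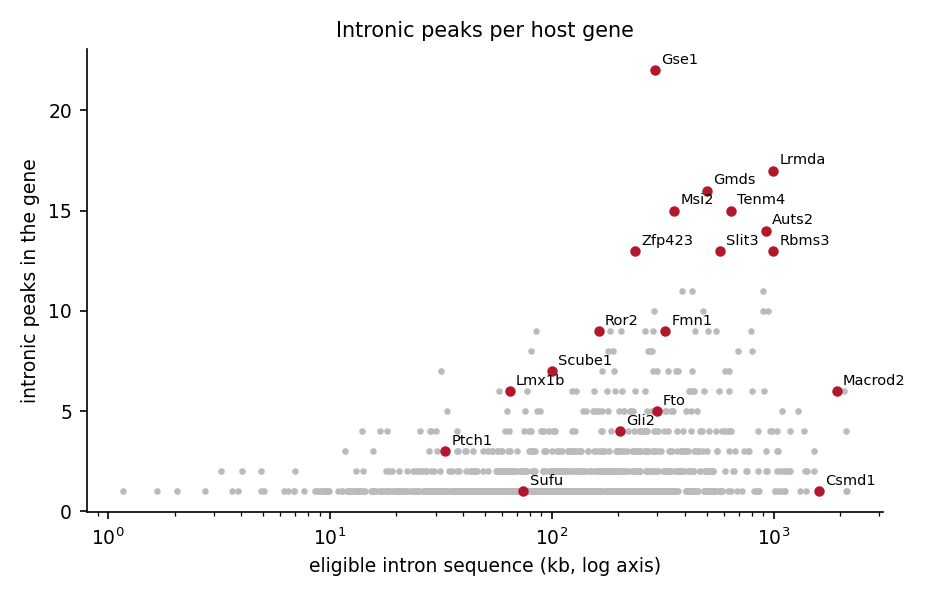
Number of listed intronic peaks in each host gene (vertical) against its intron sequence open to the rule, labelled eligible, in kb (horizontal, log axis), 1 point per gene, without Gm20388. Named genes are in red; Gse1 reaches 22 peaks in 293 kb, while Csmd1 and Macrod2 hold 1 and 6 in more than 1000 kb.

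Host genes more often carried a GLI3 peak at their own promoter. A listed peak within 1 kb of a TSS was found for 45.8% of hosts (43.1 to 48.6) and 37.2% of genes that hosted none (36.2 to 38.1). For hosts of at least 3 peaks it was 58.2% (52.3 to 63.9). With promoter peaks of FDR under 0.05, the shares were 27.0% (24.5 to 29.5) and 20.6% (19.8 to 21.4). Within bins of open length the difference kept its direction, with 29.5% against 22.3% at 50 to 200 kb, where the intervals (25.8 to 33.4 and 20.4 to 24.3) did not overlap. They did not overlap under 10 kb either (46.7% of 30 hosts, 30.2 to 63.9, against 18.8%, 17.5 to 20.1). They overlapped at 10 to 50 kb (26.2% against 21.6%) and over 200 kb (22.4% against 16.7%).

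Most intronic peaks were nearest to a start of the gene they lay in. The nearest TSS belonged to a host for 1919 (77.8%, 76.1 to 79.4) and to another gene for 547 (22.2%). The same share was not taken over the open intron sequence, so these values have no background here. The median distance to the nearest TSS was 48.1 kb (quartiles 24.4 and 97.4), and 593 (24.0%) were more than 100 kb away. The farthest, in Csmd1, was 915 kb from any. Intergenic peaks lay farther out, with a median of 90.7 kb. After Foxc1, with 11 peaks in Gmds, the genes most often nearest without being the host were Wnt5a, a secreted ligand of limb outgrowth, with 8 peaks in Erc2, and Tcf7l2, with 7 in Vti1a. The best-ranked of these stood at 492, 3592 and 2367.

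Peaks were somewhat denser in early introns. First introns held 573 of the 2413 numbered peaks, or 23.7% (22.1 to 25.5), and 21% of the open sequence. Second introns held 17.9% (16.4 to 19.5) and 15.3% of sequence. The sixth and later introns held 34.5% of peaks (32.6 to 36.4) and 39.2% of sequence. This corresponds to 4.26 and 4.40 peaks per Mb in introns 1 and 2 and 3.31 in the sixth and later. Among peaks of FDR under 0.05 the first-intron share was 23.2% (20.6 to 26), whose interval includes the sequence share. The last intron of a transcript held 8.66% of peaks and 8.57% of sequence.

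The introns that held peaks were long, with a median of 49.2 kb (quartiles 16.9 and 117), and 703 peaks (29.1%) lay in introns of 100 kb or more. They ranged down to 118 bp in Adam11. The median summit lay 53.1% of the way through its intron (quartiles 30.1 and 76.2). The distance rule removes intron ends near a TSS, and the same measure was not taken over the open sequence.

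**Figure D3:**
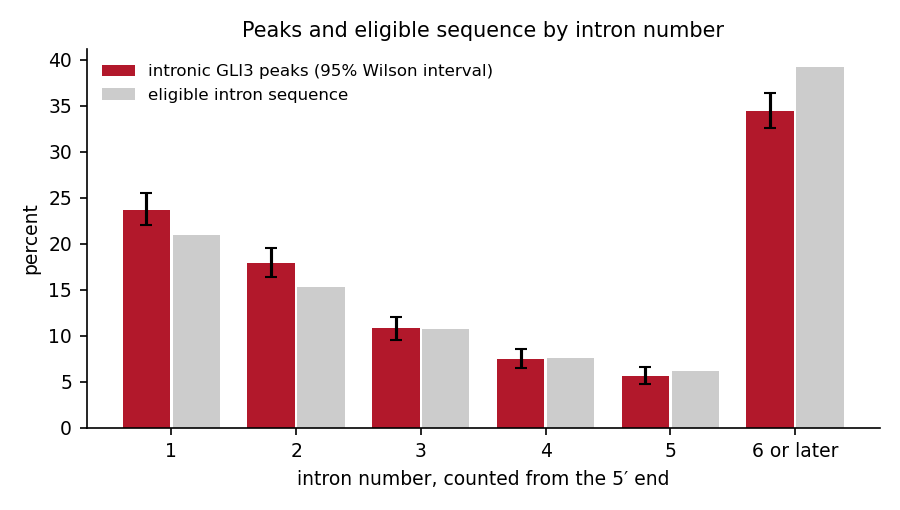
Percent of the 2413 numbered intronic peaks (red, with 95% Wilson intervals) and percent of open intron sequence (grey, labelled eligible) by intron number from the 5′ end. Introns 1 and 2 hold 23.7% and 17.9% of peaks in 21% and 15.3% of the sequence, while the sixth and later hold 34.5% in 39.2%.

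GLI matches were about as frequent at intronic as at intergenic peaks and more frequent than at promoters. A match to the consensus with at most 1 mismatch lay within 250 bp of the summit in 499 of 2466 intronic peaks, or 20.2% (18.7 to 21.9), beside 17.9% of all listed autosomal peaks. In windows of the same length centred 2 kb to either side, a match was present in 517 of 4932, a difference of 9.75 percentage points (7.98 to 11.6). Intergenic peaks had 20.4%, which differed from intronic peaks by -0.152 points (-2.15 to 1.89). Promoter peaks had 15.1%, and the intronic share was higher by 5.15 points (3.41 to 6.95).

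Stronger intronic peaks held a match more often. The share was 22.9% at FDR under 0.05, against 10.1% in their flanks, and 18.6% at FDR of 0.05 or more, against 10.7%. The 250 highest-ranked had 27.6% and the others 19.4%, a difference of 8.20 points (2.75 to 14.3). Even so, most intronic peaks had no match within this window, including 12 of the 20 highest-ranked. Peaks nearest to another gene's TSS had 23.0% and those nearest to a host's own TSS 19.4%. First introns had 21.8% and later introns 19.7%.

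Matches sat near the summit. Those centred within 50 bp were 2.25 times as dense per position as those from 150 to 240 bp away, and 2.72 times at FDR under 0.05. At promoter peaks the ratio was 1.46. In 5 intronic windows the exact consensus occurred several times, up to 11 times in a window in Gulo, and without those 5 windows the ratio was 2.39.

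**Figure D4:**
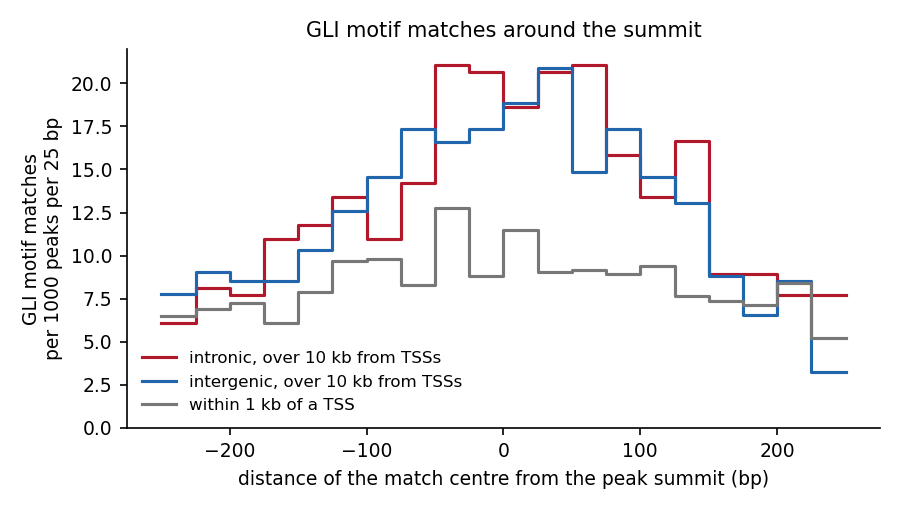
GLI matches per 1000 peaks in 25-bp bins (vertical) against the distance of the match centre from the peak summit in bp (horizontal) for intronic (red), intergenic (blue) and promoter (grey) peaks. The outermost bins are covered only in part, since a match must lie wholly within the window. Intronic and intergenic peaks both rise at the summit, with 2.25 times the outer density, while promoter peaks reach 1.46 times.

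The exact consensus, as printed for Fbn1, Fat3 and Sox6, showed the largest ratio to flanks of the 28 forms searched. It was present in 74 intronic windows (3.0%), against 0.365% of flank windows, a ratio of 8.22. The change C7A, as in the Fto sequence, was present in 76 windows and had a ratio of 4.0. A2C and A2G, the latter as in Runx2 and Pappa, had ratios of 3.18 and 3.03. C3A, the form under the strongest peak of all, had 1.68, and G1C had 1.21. Some forms with a mismatch were not above their flanks: C6G, the form printed for Sufu, had a ratio of 0.963, C6T 0.889, C3G 0.769, C7T 0.750, C4T 0.667, C8G 0.400 and C6A 0.370.

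Other short sequences were also more frequent at intronic summits than in their flanks. The E-box CAGCTG, bound by basic helix-loop-helix factors, was present in 36.3% of intronic windows (34.4 to 38.2) and 22.0% of flanks, a difference of 14.3 points (12.1 to 16.5). The homeodomain core TAATTA was present in 24.5% (22.8 to 26.2) and 13.4%, a difference of 11.1 points (9.13 to 13.0). Intergenic peaks were similar, with 35.3% and 22.8%. At promoter peaks TAATTA was present in 3.23%, below their flanks at 13.4%.

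The GC-box GGGCGG, bound by SP and KLF factors, was present in 15.9% of intronic windows and 6.29% of flanks, and in 80.2% of promoter windows. The ETS core CCGGAA was present in 7.91% and 4.30%. The TEAD core GGAATG had a smaller difference, of 3.81 points (1.66 to 6.00), and at FDR under 0.05 its interval included 0 (1.69, -1.73 to 5.20). For the SOX core ACAAAG, the AP-1 site TGANTCA, the NFY box CCAAT, the E-box CATATG, the POU site ATTTGCAT, the PBX site TGATTGAT and a CTCF core, the interval of the difference from flanks included 0 over all listed intronic peaks. At FDR under 0.05 it did not for the AP-1 site (-2.80 points, -5.21 to -0.236) and the POU site (-1.53, -2.64 to -0.277), which were less frequent than in flanks. Both strands were searched for every string, and matches of different strings could overlap. Base composition moved with these shares: the median GC content was 47.5% at intronic summits, 45.1% in flanks and 64.9% at promoter peaks, and its part in them was not tested.

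Both strings were also counted by whether the peak held a GLI match, and the difference between the strings was not tested. CAGCTG was present in 36.3% of intronic peaks with a GLI match and 36.3% of those without, a difference of -0.0264 points (-4.65 to 4.77). TAATTA was present in 19% of those with and 25.9% of those without, a difference of -6.84 points (-10.6 to -2.71). Intergenic peaks showed -5.19 points (-8.14 to -2.01) for TAATTA, and promoter peaks 0.564 (-0.473 to 1.86).

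Genes of the HH pathway were frequent hosts. Of 23 with open intron sequence, 10 (43.5%) held an intronic peak, against 11.3% of all such genes. They held 25 peaks in 1.55 Mb, or 16.1 per Mb against 3.75. FDR was under 0.05 for 14 of the 25, beside 38.4% of all intronic peaks. Of the 25 peaks, 6 had a GLI match (24.0%, 11.5 to 43.4), which is not separable from 20.2% over all intronic peaks. This and the other lists of genes are short and were chosen for this tissue, so that their counts are descriptions. The exception is the list of very long genes, chosen as a background with no expected limb role. Each list's share of hosts and density are to be read beside 11.3% and 3.75 per Mb for all genes, and its share of hosts also beside its length: the median gene of every list had more open sequence than the 21.1 kb of all genes, from 49.5 kb in the retinoic acid list to 1085 kb in very long genes, and 23.8% of all genes with 50 to 200 kb open and 53.9% of those with more were hosts.

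Ptch1, the HH receptor and a direct target of the pathway, held 3 intronic peaks. The strongest ranked 264 with a log2 enrichment of 3.97 and lay in intron 15 of 22, and the second, in the next intron, ranked 4494 (2.58, FDR 0.00704). Both had a GLI match, printed above. The third, in intron 8, had a log2 enrichment of 1.91 and an FDR of 0.782. Sufu, which holds GLI proteins in the cytoplasm, had 1 peak, in intron 2 of 11, at rank 161 with a log2 enrichment of 4.17. Hhip, a decoy receptor for HH ligands, had 1 in intron 11 at rank 5249 (2.49, FDR 0.0114).

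Scube1 and the release factor Disp1 act on the ligand side. Scube1, of a family of secreted proteins that help release HH ligand, held 7 peaks, 4 of FDR under 0.05, at ranks 95, 304, 1812 and 2736 with log2 enrichments of 4.43, 3.92, 3.06 and 2.84. The peak of rank 304 had a GLI match and that of rank 95 did not. Disp1 held 2, at 3.14 and 2.44, and Hhat, which attaches palmitate to HH ligands, held 1 at 2.38 (FDR 0.0374).

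Among the GLI genes, Gli2 held 4 intronic peaks, all in intron 2 of 13, with log2 enrichments of 2.77, 2.37, 2.36 and 1.97. The first 3 had FDR under 0.05, the second and the third of them 51.7 and 51.4 kb from the Gli2 TSS. Gli3 also held 4, from 1.81 to 2.27, none of which passed FDR 0.05. None of these 8 had a GLI match. Boc, a coreceptor, and Scube3 held 1 each, at FDR 0.148 and 0.470. No intronic peak was listed in Smo, which transmits the signal across the membrane, in the coreceptor gene Cdon or in Kif7, a ciliary kinesin gene with only 4.0 kb of open sequence.

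Genes known to hold enhancers of a neighbour were hosts in 5 of 11 cases (45.5%, beside 11.3% of all genes, with a median of 162 kb open), with 20 peaks, or 11.4 per Mb beside 3.75. The strongest lay in intron 8 of Fto, at rank 85 with a log2 enrichment of 4.50, and had a GLI match centred 9 bp from the summit. Its nearest TSS was that of Irx3, a homeobox gene of early limb patterning, 189 kb away. The other peaks in Fto ranged from 1.90 to 2.73, and 4 of the 5 had a match. Only 2 of the 5 had FDR under 0.05, and the lower of these, at 2.73, had no match. At the peaks of 2.18 and 1.90 (FDR 0.133 and 0.782) the match was centred 229 and 226 bp from the summit, outside the listed peak. Fmn1 held 9, from 1.90 to 3.05, of which 5 had FDR under 0.05, and 4 of the 9 were nearest to Grem1, the BMP antagonist gene of the limb. The strongest of the 9 was among those 4, 118 kb from Grem1. Dync1i1, whose introns and exons hold enhancers of the Dlx genes beside it, held 4 peaks in intron 6, the strongest at 3.21. Lnpk and Cog5 held 1 each, at 2.09 and 1.91, neither of FDR under 0.05. Lmbr1 had 129 kb of open sequence and no listed intronic peak.

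Limb transcription factor genes were the list with the most peaks. Of 49, 33 (67.3%, beside 11.3% of all genes) were hosts, with 138 peaks in 9.21 Mb, or 15.0 per Mb. FDR was under 0.05 for 49 of the 138, beside 38.4% of all intronic peaks. Zfhx3, Mecom and Sox5 held 10 each, Sox6 and Pknox2 9, Prdm16 8 and Ebf1 7. The strongest were in Nfix (log2 enrichment 4.40), Pknox2 (4.36) and Runx2, the master factor of bone formation (3.88), and Zfhx3 reached 3.55. Lmx1b held 6 in 64.7 kb, the strongest at 2.76. Sox5 had 10 peaks but only 1 of FDR under 0.05, while 5 of the 9 in Sox6 passed.

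Signaling genes differed in density. The WNT list had 13 hosts of 28 (46.4%) with 31 peaks, or 11.6 per Mb. Ror2, a WNT5A receptor needed for limb outgrowth, held 9 of them, 8 within its first intron, with log2 enrichments of 3.95, 3.76 and 3.30 for the highest 3 and 6 of FDR under 0.05. Tcf7l1 held 5, the highest at 4.44, and Axin2, a target and inhibitor of WNT signaling, held 1 at 3.44. The coreceptor gene Lrp5 held 3, the highest at 3.65, and Tcf7l2 2, the higher at 3.47. The BMP and TGF-beta list had 9 hosts of 23 (39.1%) with 18 peaks, or 9.59 per Mb, and all 5 peaks of Tgfbr3, a TGF-beta coreceptor gene, had FDR under 0.05. Bmp7 held 3, the highest at 3.49, the inhibitor gene Smad6 2, the higher at 3.07, and the receptor gene Bmpr1b 1 at 2.44.

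In the Notch list 4 of 8 genes (50%) were hosts, and 10 of their 11 peaks had FDR under 0.05, beside 38.4% of all intronic peaks, with 5 of the 10 in 1 gene. Jag1, a Notch ligand gene, held 1 at a log2 enrichment of 3.84, and Maml3, a Notch coactivator, held 5, the highest at 3.05. Notch2 and Maml2 reached 3.32 and 2.68. The retinoic acid list had 4 hosts of 9 (44.4%) with 14 peaks, 8 of them in Rere, a coactivator of retinoic acid signaling, where the highest was 3.41. The receptor genes Rarb and Rxra reached 3.06 and 2.15. The FGF list had 5 of 11 hosts (45.5%) with 12 peaks, or 3.09 per Mb, below 3.75 for all genes. Its 6 peaks in Fgfr2 came from 1 transcript model that runs far beyond the others, and 0 of the 6 lay within the span of the usual transcripts. Without Fgfr2 the list had 6 peaks, or 3.30 per Mb, the highest at 2.92 in Fgfr1, 2.74 in Fgf12 and 2.57 in Spred2.

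Chromatin regulators had 11 hosts of 24 (45.8%) with 39 peaks, 10.6 per Mb, and 3 with a GLI match (7.69%, 2.65 to 20.3), an interval that includes 20.2% over all intronic peaks. The strongest were in Jarid2 (4.55) and Kdm2b, a CpG-island binding demethylase gene (4.05), followed by Setbp1 (3.48) and Arid1b (3.38). Matrix and cartilage genes had 12 of 28 (42.9%) with 27 peaks, 5.84 per Mb, and 12 with a match (44.4%, 27.6 to 62.7). Col23a1 held 9 of those peaks, the highest at 3.49, and Fbn1, Adamtsl1 and Gpc6 reached 3.29, 2.88 and 2.65. Over all intronic peaks the share with a match was 20.2%. Windows of close summits overlap, so the same match can count for neighbouring peaks, as at ranks 2794 and 9878 in Adamtsl1. The interval takes no account of this.

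Guidance and adhesion genes had the highest share of hosts of the lists, 30 of 35 (85.7%), with a median of 336 kb open, and 81 peaks in 14.2 Mb, or 5.71 per Mb. Slit3 held 13 and Sema3a and Plxna4 6 each, of which 0 in Sema3a and 5 in Plxna4 had FDR under 0.05. The highest were in Sema5a (3.72), Slit3 (3.6), Ptprd (3.35) and Slit1 (3.31). Very long genes, most of them known for neural expression, were the list chosen as a background with no expected limb role. They had 15 hosts of 29 (51.7%) and 38 peaks in 31.9 Mb, or 1.19 per Mb, below 3.75 for all genes. Lsamp, Cntnap2 and Csmd1 held 1 each in more than 1000 kb of open sequence. Wwox, with 11, and Macrod2, with 6, held the most. Grm8 held 1 of the strongest, with a log2 enrichment of 3.86 and a GLI match within 50 bp of its summit.

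**Figure D5:**
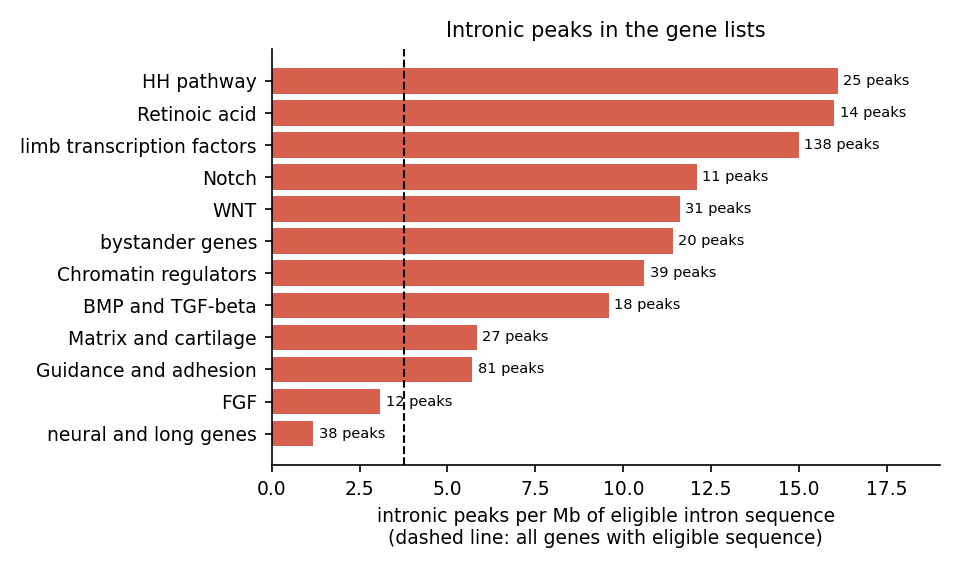
Listed intronic peaks per Mb of intron sequence open to the rule, labelled eligible (horizontal) in each list of genes (vertical), with the number of peaks beside each bar and a dashed line at 3.75 per Mb for all genes. The HH pathway, retinoic acid and limb transcription factor lists reach 15.0 to 16.1 per Mb, and the neural and long genes, chosen as a background, 1.19.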

How the data were processed

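ChIP libraries (2) and 1 input were made with the NEBNext Ultra II kit. The submitters' processing notes name Bowtie2 2.2.5 and mm10, and the study's methods name CisGenome for peak calling. The authors deposited 1 joint peak list, attached to the first ChIP sample, with a maximum log2 fold enrichment, a T score, a −log10 Poisson p-value limited to 100 and an FDR (a q-value) for each peak. It holds no counts and no value per replicate. The study's methods state a minimum sequencing depth per library, but the reads behind each peak cannot be had from the list. FDR is the authors' own, and no test was run here.

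Peaks were placed by summit against GENCODE M21. A TSS was the 5′ end of any protein-coding transcript. Intron numbers came from the protein-coding transcript with the longest coding sequence that has an intron at the summit, and 53 peaks had none. With several hosts (56 peaks, 2.27%), the shortest gene gave the number. Open sequence is the intron sequence that meets the rule. Motifs were searched within 250 bp of the summit in the GRCm38.p6 sequence (RefSeq), the same assembly as mm10. Windows of close summits overlap, so that the same match can be counted at neighbouring peaks. Intervals are 95% Wilson or Newcombe intervals over peaks and cover counting error only, with no allowance for shared matches. The code was tested on simulated data. Python 3.11.15, numpy 2.4.6, pandas 2.3.3, scipy 1.17.1 and matplotlib 3.10.9 were used.

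Genes were named by rule: hosts of the 20 highest-ranked peaks and the nearest TSSs of those outside their host, the 15 hosts with the most peaks and ties, hosts of the HH pathway and neighbour-enhancer lists, and up to 4 hosts in each of the other lists (12 lists in all); some genes under this rule are not reported here. Genes named beyond that (the densest hosts, those nearest without being the host, and listed genes past the 4) were chosen after their values were seen. The peaks, lists and rules were chosen with earlier results of these data known. Peaks off the autosomes (295) were left out. Alternatives changed the FDR threshold, TSS distance, TSS and exon sets, hosts, transcript, motif, window and flanks.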

Additional observations from a re-analysis of the deposited data

How the results depend on the processing

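Of 42 alternatives over 8 values, 24 left a share, median or difference within its 95% interval, or the counts between 1764 and 2794 peaks (2466 as reported) and between 973 and 1209 hosts (1224). The fewest peaks, 1764, came from also keeping 10 kb from the TSSs of all genes, noncoding ones included. Requiring FDR under 0.05 left 946 intronic peaks and 626 hosts, a median log2 enrichment of 2.72, a share of hosts with several peaks of 29.2%, and a GLI share of 22.9%, which was 12.8 points above flanks and differed by -2.25 points from intergenic peaks. FDR under 0.01 left 643 peaks with a median of 2.96 and a GLI share of 25.2%, 15.6 points above flanks. With summits within 1 kb counted as 1, 38.4% of hosts held several. Beyond 20 kb from a TSS the first-intron share was 20.3%, and the GLI share differed from intergenic peaks by 0.0920 points, the opposite sign to -0.152 and within the interval of both. The exact consensus gave a share of 3.0%, 2.64 points above flanks, and a window of 100 bp to either side 11.6%, 7.18 points above. The cause of these shifts was not tested. Without the 28 peaks whose innermost host was Gm20388, an alternative added after seeing the data, 2438 peaks remained and the first-intron share was 22.9%.

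No paired analysis was possible because each peak has 1 value from a joint call. Leaving out each replicate was not run for the same reason. Reads per peak were not analysed here, so that the precision of a single enrichment is unknown.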

Other observations

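Intronic summits lay in annotated repeats in 9.98% of cases, while 28.9% of the open intron sequence was repeat. The share was 9.02% over all listed autosomal peaks, 10.6% at intergenic and 7.39% at promoter peaks. The GLI share was 20.7% (51 of 246) for summits in repeats and 20.2% outside. Some intronic peaks, 125 (5.07%), also lay within the body of a long noncoding RNA gene, against 17.1% of intergenic peaks.

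Peaks of 1 kb or longer numbered 32 among intronic peaks (1.30%), beside 2.41% of all listed autosomal peaks. The share was 1.78% at intergenic and 2.94% at promoter peaks. The median intronic length was 200 bp, beside 250 bp over all autosomal peaks, and at FDR under 0.05 it was 400 bp in both. In 90 the peak touched an exon although its summit did not.

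In hosts of at least 3 intronic peaks, the log2 enrichment differed by a median of 1.0 between the strongest and the weakest peak of the same gene, a range that is above 0 by construction and was not set against other groupings of peaks.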
